A study of Homo sapiens with 9 samples.

Results

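The 9 genes described here are the nuclear receptors PPARA, PPARD and PPARG, their coactivator PPARGC1A, and 5 genes known as PPAR targets or partners in fat metabolism, namely ANGPTL4, CPT1A, PDK4, CREB3L3 and FABP4. They are 9 of the 45754 genes in the deposited table and were matched by gene name. ANGPTL4 and CPT1A were chosen by their rise under both compounds in these same libraries, so their values against control are given as a description without a test. RNA was sequenced from human lung cancer cells labelled as H441, an established lung adenocarcinoma line, in 3 groups of 3 libraries. One group received 0.1% DMSO, the solvent control, one received 10 µM of the compound BSGL and one 10 µM of the compound RSGL, each for 24 h. The cell line tag reads H441 throughout, but a genotype tag names H460 in the control and BSGL groups and A549 in the RSGL group, both also lung cancer lines, so that in every comparison with RSGL the compound and the tag cannot be told apart. The labels name no separate cultures behind the replicates, and p-values therefore measure the spread between these libraries, which may be technical.

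PPAR receptors are ligand-activated transcription factors that bind DNA as partners of RXR receptors and respond to fatty acids and their derivatives. PPARA drives the use of fatty acids as fuel in liver and muscle, PPARD does so in many tissues, and PPARG is best known for directing fat storage in adipocytes. PPARGC1A (PGC-1α) is a coactivator that joins these receptors to mitochondrial gene programmes, and ANGPTL4, CPT1A and PDK4 are among the genes that PPAR ligands are known to raise in many cell types.

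Because ANGPTL4 and CPT1A were both higher under both compounds, and PPARG was the most abundant receptor, the stretches before their start sites are shown, with that of PDK4 beside them. The sequences are from RefSeq (GRCh38.p14), whose promoter table held 8 of the 9 genes by symbol. Capitals mark AGGTCA, the core hexamer to which nuclear receptors bind, and TATAAA, a core promoter motif. Stretches end at the annotated start site or, where the deposited gene model begins earlier, at most 30 bases inside that model. Windows that this rule left too short, among them the other PPARG windows, are not shown.

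ANGPTL4, chr19:8363905-8364154, plus strand: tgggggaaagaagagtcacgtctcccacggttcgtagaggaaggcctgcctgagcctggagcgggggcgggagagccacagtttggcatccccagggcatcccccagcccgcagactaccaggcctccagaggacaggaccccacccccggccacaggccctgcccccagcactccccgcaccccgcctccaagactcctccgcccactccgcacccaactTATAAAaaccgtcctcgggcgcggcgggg

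CPT1A, chr11:68844381-68844527, minus strand: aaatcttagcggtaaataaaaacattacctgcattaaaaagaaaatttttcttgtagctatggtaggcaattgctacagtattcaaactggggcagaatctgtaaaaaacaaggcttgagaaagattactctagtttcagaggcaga

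PDK4, chr7:95596584-95596766, minus strand: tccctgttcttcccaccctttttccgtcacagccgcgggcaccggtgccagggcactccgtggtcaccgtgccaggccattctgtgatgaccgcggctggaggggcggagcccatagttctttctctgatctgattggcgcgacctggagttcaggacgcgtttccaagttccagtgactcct

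PPARG, chr3:12287118-12287367, plus strand: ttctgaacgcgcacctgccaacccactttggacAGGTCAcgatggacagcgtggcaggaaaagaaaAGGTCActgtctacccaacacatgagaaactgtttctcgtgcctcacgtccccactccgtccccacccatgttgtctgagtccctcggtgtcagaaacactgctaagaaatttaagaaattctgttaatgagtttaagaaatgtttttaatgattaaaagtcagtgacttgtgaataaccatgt

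Both strands of each window, from 250 bases before to 50 after a start site, were searched. AGGTCA occurred in 4 of the 15 windows of these genes, against 13.8% of all 35116 windows of that length. Of those 4, 3 belonged to PPARG and 1 to CREB3L3. In the PPARG window shown, the hexamer lay at positions -217 to -212 and -184 to -179 from the start site. The other 2 PPARG windows overlap each other and hold 1 hexamer between them. The full PPAR element, a direct repeat of the hexamer with 1 base between its copies, was in 0 of the 15 windows and in 0.0228% of all windows. TATAAA was in 3 of the 15 and in 11.5% of all windows. In ANGPTL4 it lay at -29 to -24, and the other 2 windows were the overlapping ones of PPARG, which share 1 copy. The windows of ANGPTL4, CPT1A and PDK4 held 0 copies of AGGTCA, which says only that these letters are not in these windows.

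The libraries held 16720414 to 18738947 fragments in genes, and 7 of the 9 genes passed the filter of at least 1 FPKM (fragments per kilobase of gene length, scaled to library depth) in at least 3 of the 9 libraries. Of 7 markers of the lung club and alveolar cells that H441 is known to resemble, 0 passed, and their sum was 0.908 to 2.25 FPKM per library. FABP4 is also known from adipocytes, endothelial cells and macrophages. Of 6 adipocyte markers 3 passed and the sum lay between 2.95 and 4.81 FPKM, while of 5 endothelial markers 0 passed and the sum was 0.166 FPKM or lower. Of 5 macrophage markers 2 passed, and the sum lay at 42.2 to 42.7 FPKM in DMSO, 46.6 to 47.8 under BSGL and 117 to 121 under RSGL. Most of that was CD68, a lysosomal protein that epithelial cells also make. The other marker that passed, the monocyte receptor CD14, fell from a mean of 2.11 FPKM in DMSO to 0.346 under RSGL (log2 -1.22). CD14 passed the filter only through the DMSO and BSGL libraries, where it was high. The p given is therefore that of the limma test with no filter (adjusted p = 0.000112). The defining leukocyte marker PTPRC never exceeded 0.0133 FPKM. Of 6 hepatocyte markers 1 passed, the fibrinogen gene FGB, and the sum lay at 1.38 to 1.61 FPKM in DMSO and at 0.104 to 0.22 under RSGL. The part of these shifts in the results on RSGL was not tested.

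Positions are on GRCh38. PPARA (gene ID 5465) lies on chromosome 22 at 46150534 to 46243756, PPARD (5467) on chromosome 6 at 35342558 to 35428191 and PPARG (5468) on chromosome 3 at 12287850 to 12471054. PPARGC1A (10891) lies on chromosome 4 at 23792021 to 24472975, ANGPTL4 (51129) on chromosome 19 at 8364127 to 8374375. CPT1A (1374) is on chromosome 11, from 68754620 to 68844410. PDK4 (5166) lies on chromosome 7 at 95583497 to 95596613, CREB3L3 (84699) on chromosome 19 at 4153601 to 4173054 and FABP4 (2167) on chromosome 8 at 81478497 to 81483238. Of the 9, only PPARA and FABP4 overlap another gene of the table, in each case one on the opposite strand, at up to 0.377 FPKM for that of PPARA and 0 for that of FABP4. With the strand setting not stated, fragments of such pairs cannot be told apart.

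**Figure D1:**
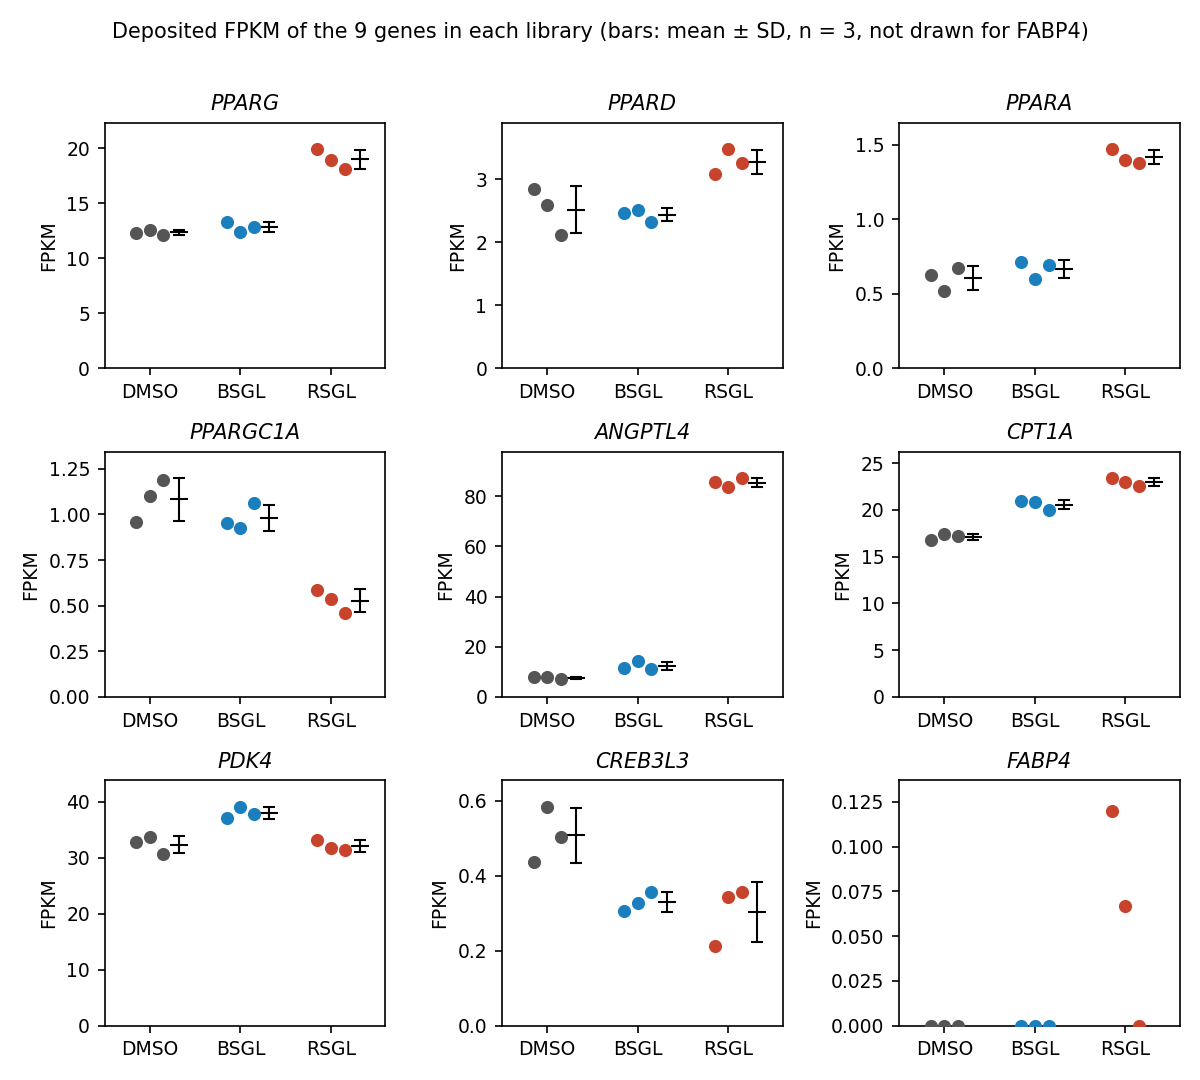
Deposited FPKM (vertical axes, each from 0) of the 9 genes in every library, 1 point per library, by group, with the mean and SD of 3 libraries drawn beside the points except for FABP4. ANGPTL4 stood at 83.5 to 87.2 FPKM under RSGL against 7.17 to 7.96 in DMSO, PDK4 was highest under BSGL, and PPARGC1A was lowest under RSGL.

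The receptors rose under RSGL and showed no call under BSGL, with PPARG by far the most abundant in every group. PPARG stood at 12.3, 12.6 and 12.1 FPKM in the DMSO libraries, at 13.3, 12.4 and 12.8 under BSGL, and at 19.9, 18.9 and 18.1 under RSGL. The RSGL libraries all lay above the other 6, while those of DMSO and BSGL overlapped. Against DMSO the difference on the log2(FPKM + 1) scale was 0.58 under RSGL (SE 0.0427, 95% interval 0.49 to 0.68, limma adjusted p = 2.16e-06) and 0.06 under BSGL (95% interval -0.04 to 0.15, adjusted p = 0.906). In these tests 54.8% of the 12775 genes tested were called at an adjusted p under 0.05 in the comparison of RSGL with DMSO, and 0.0861% in that of BSGL with DMSO. Libraries did not overlap in 61.2% and 12.8% of the tested genes, in the same order.

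PPARA, the receptor of fasting and fat oxidation, was scarce. It stood at 0.624, 0.521 and 0.673 FPKM in DMSO, at 0.71, 0.597 and 0.695 under BSGL, and at 1.47, 1.4 and 1.38 under RSGL. The RSGL libraries were again apart from the other 6, at 2.34 times the DMSO mean, and the log2 difference was 0.59 (SE 0.0772). PPARA reached the filter only through the RSGL libraries, so its presence among the tested genes depended on that difference, and the p given is that of the test with no filter (adjusted p = 0.000196). With limma-voom on recovered fragments, which adds no FPKM, the difference was 1.23. The gene rested on 115 to 327 fragments per library.

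PPARD, the broadly expressed receptor, changed least of the 3. Its DMSO libraries were at 2.85, 2.59 and 2.12 FPKM, those of BSGL at 2.47, 2.52 and 2.33, and those of RSGL at 3.09, 3.48 and 3.26. The lowest RSGL library lay above the highest DMSO library, so the groups did not overlap, and the log2 difference of 0.29 passed (SE 0.0779, 95% interval 0.11 to 0.46, adjusted p = 0.0109). Under BSGL the difference was -0.03 (95% interval -0.20 to 0.15, adjusted p = 0.979).

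FPKM was scaled to a single deposited length per gene, 11243 bases for PPARA, 5529 for PPARD and 4667 for PPARG. Shares and rankings between genes, here and below, depend on such lengths. Whether these lengths match the transcripts expressed here was not tested. PPARG made up 79.8% ± 1.69 (SD, n = 3) of the summed receptor FPKM in DMSO, 80.5% ± 0.476 under BSGL and 80.1% ± 1.06 under RSGL. PPARD held 16.3% ± 1.95, 15.3% ± 0.772 and 13.9% ± 1.08, and PPARA 3.93% ± 0.591, 4.18% ± 0.297 and 5.99% ± 0.0923. The share of PPARG overlapped between the 3 groups, and that of PPARA was higher in each RSGL library than in the other 6. The summed level of the receptors was 15.5 ± 0.448 FPKM in DMSO, 16.0 ± 0.476 under BSGL and 23.7 ± 0.849 under RSGL.

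**Figure D2:**
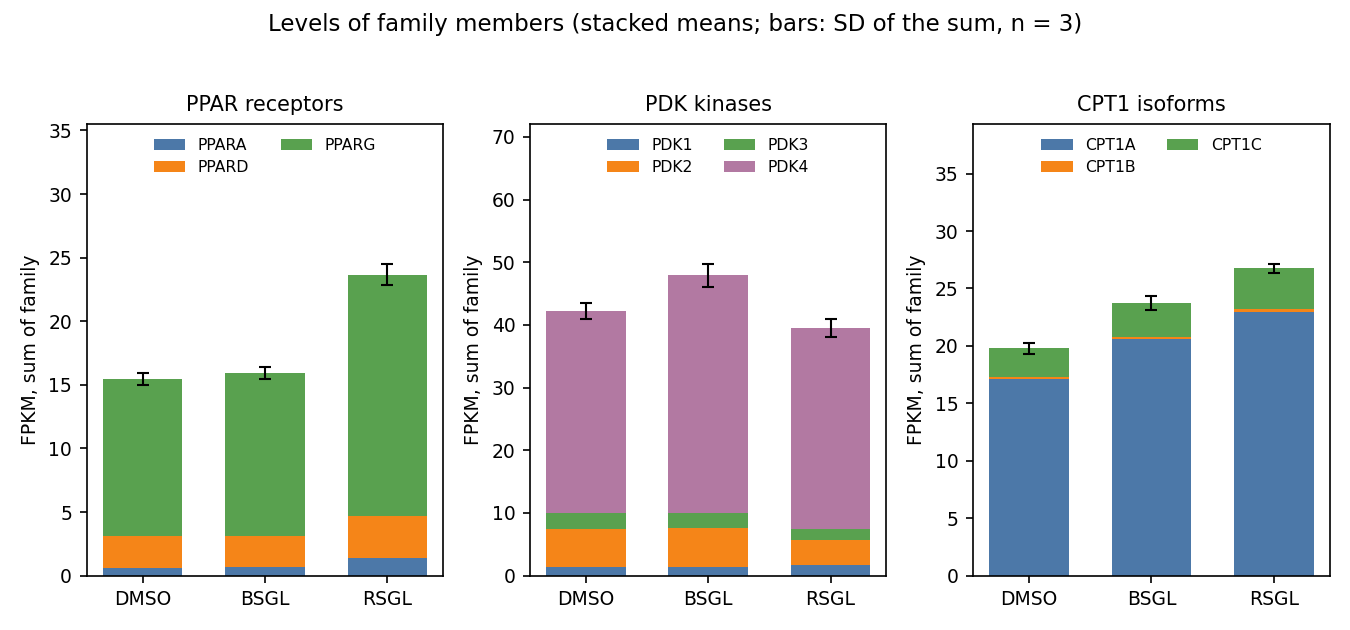
Stacked mean FPKM (vertical axis) of the PPAR receptors, the PDK kinases and the CPT1 isoforms in the 3 groups, with the SD of the family sum over 3 libraries. PPARG, PDK4 and CPT1A make up most of their family in each group, and the receptor sum is 23.7 FPKM under RSGL against 15.5 in DMSO.

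PPARGC1A moved the other way. This coactivator of mitochondrial genes was at 0.957, 1.1 and 1.19 FPKM in DMSO, at 0.953, 0.928 and 1.06 under BSGL, and at 0.584, 0.536 and 0.459 under RSGL. All RSGL libraries lay below the other 6, on 97 to 261 fragments per library, and the log2(FPKM + 1) difference from DMSO was -0.45 (SE 0.0814). The mean FPKM under RSGL was 0.488 times that in DMSO, and limma-voom on fragments put the difference at -1.03. PPARGC1A passed the filter only through 3 DMSO and BSGL libraries, the groups where it was high, and the p given is again that of the test with no filter (adjusted p = 0.00155). Under BSGL it differed from DMSO by -0.07 (95% interval -0.25 to 0.11, adjusted p = 0.949 with the filter and 0.914 with no filter).

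Among 16 genes of RXR partners and coregulators 14 passed the filter. Under RSGL 1 was called higher and 5 lower, where 27.2% of all tested genes were called higher and 27.6% lower. The list's median difference was -0.09, against -0.00 over all tested genes. NRIP1 (RIP140), a corepressor of fat-burning genes, stood at 7.66, 7.07 and 7.67 FPKM in DMSO and fell to 4.44, 4.42 and 3.88 under RSGL (log2 -0.69, SE 0.0557, adjusted p = 4.19e-06). The acetyltransferases CREBBP (log2 -0.40) and EP300 (-0.32), which serve many transcription factors, fell too. ESRRA, an orphan receptor of mitochondrial genes that works with PPARGC1A, was the gene called higher, from a mean of 28.9 to 37.6 FPKM (log2 0.37, adjusted p = 7.35e-05). RXRA, the only RXR receptor that passed the filter, averaged 11.3 FPKM in DMSO and 10.4 under RSGL and was not called (adjusted p = 0.0635). RXRB averaged 0.169 FPKM in DMSO and rested on 33 to 75 fragments per library. Under BSGL limma called 0 of the 14 genes, 0 had an unadjusted p under 0.05, and limma-voom called 0. The list's median was -0.01.

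ANGPTL4, a secreted protein that blocks lipoprotein lipase and so slows the uptake of fat from blood, showed the steepest steps. Its DMSO libraries were at 7.96, 7.8 and 7.17 FPKM, those of BSGL at 11.6, 14.3 and 11.1, and those of RSGL at 85.5, 83.5 and 87.2. The 3 groups did not overlap with each other, and BSGL replicate 2 stood above the other 2 BSGL libraries. Libraries of BSGL and DMSO were apart in 12.8% of all tested genes, and those of RSGL and either other group in 61.2%. Mean FPKM was 1.62 times the DMSO mean under BSGL and 11.2 times under RSGL, that is 0.62 and 3.32 on the log2(FPKM + 1) scale. The gene was chosen for these rises, and both share the same DMSO libraries, so no test is given. The fragments behind the values ran from 267 to 3318.

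CPT1A, which hands long-chain fatty acids to carnitine at the outer mitochondrial membrane, stood higher in smaller steps. It stood at 16.8, 17.4 and 17.2 FPKM in DMSO, at 20.9, 20.8 and 20.0 under BSGL, and at 23.4, 23 and 22.5 under RSGL. The groups were again apart from each other, with differences from DMSO of 0.25 under BSGL and 0.40 under RSGL on the log2 scale, likewise without a test. In bulk RNA a change in the share of cells that carry a transcript and a change in its amount per cell cannot be told apart.

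PDK4, the kinase that shuts down pyruvate dehydrogenase and spares glucose, followed another order. Its libraries were at 32.7, 33.6 and 30.7 FPKM in DMSO, at 37.1, 39.1 and 37.7 under BSGL, and at 33.2, 31.7 and 31.3 under RSGL. The BSGL libraries lay above all others, whereas those of DMSO and RSGL overlapped. The BSGL difference from DMSO was 0.23 (SE 0.0417, 95% interval 0.13 to 0.32) and did not pass (adjusted p = 0.168), while limma-voom on fragments gave 0.22 with an adjusted p = 0.0158. Libraries of both groups did not overlap in 12.8% of all tested genes in that comparison, and in 61.2% in that of RSGL with DMSO. The RSGL difference from DMSO was -0.01 (95% interval -0.10 to 0.08, adjusted p = 0.855).

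The compounds were given at the same dose and time, and the direct comparison of RSGL with BSGL was not used to choose any gene, though its libraries were. It is the only pair of compounds. In it 54.0% of all tested genes were called, 26.5% higher and 27.5% lower under RSGL, and the libraries did not overlap in 61.2%. ANGPTL4 was higher under RSGL by 2.70 on the log2 scale (95% interval 2.52 to 2.88, adjusted p = 8.9e-09), at 6.91 times the mean FPKM under BSGL. CPT1A was higher by 0.15 (95% interval 0.08 to 0.23, adjusted p = 0.00381). PDK4 was lower under RSGL by contrast, with a difference of -0.24 (95% interval -0.33 to -0.14, adjusted p = 0.000955). The receptors were higher under RSGL, PPARG by 0.53 (adjusted p = 4.85e-06), PPARD by 0.31 (adjusted p = 0.00682) and PPARA by 0.54. PPARGC1A was lower under RSGL, with a difference of -0.38. Since PPARA and PPARGC1A reached the filter only through libraries in which they were high, their p-values here are those of the test with no filter, adjusted p = 0.000362 for PPARA and 0.00408 for PPARGC1A.

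**Figure D3:**
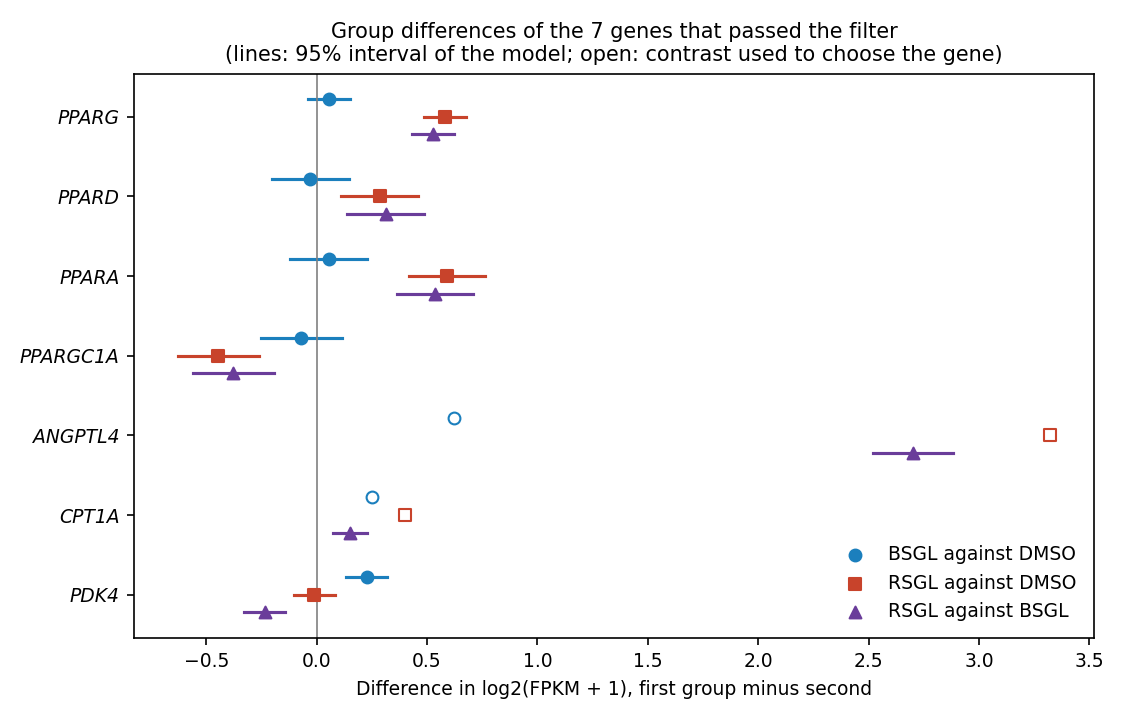
Differences in log2(FPKM + 1) (horizontal axis) for the 7 genes that passed the filter, in 3 comparisons of 3 libraries each, with 95% intervals as lines. Open symbols without lines are the contrasts that were used to choose ANGPTL4 and CPT1A. PPARA and PPARGC1A passed the filter only through libraries in which they were high, and their lines come from that filtered fit. PDK4 is the gene whose difference lies above 0 for BSGL and below 0 for RSGL against BSGL, and ANGPTL4 reaches 3.32 for RSGL.

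CREB3L3 and FABP4 did not pass the filter. CREB3L3 (CREB-H), a membrane-bound transcription factor of liver and gut that works with PPARA in fasting, was at 0.437, 0.584 and 0.502 FPKM in DMSO, at 0.305, 0.328 and 0.356 under BSGL, and at 0.212, 0.342 and 0.356 under RSGL. Each of the 6 treated libraries was below each DMSO library, on 11 to 30 fragments. Among tested genes, libraries were apart from DMSO in 12.8% under BSGL and 61.2% under RSGL, both against the same DMSO libraries. When all genes with any value were tested, the differences of -0.18 under BSGL (adjusted p = 0.902) and -0.21 under RSGL (adjusted p = 0.0579) did not pass. FABP4, the fatty acid carrier of adipocytes, was listed at 0 in all 6 DMSO and BSGL libraries and in RSGL replicate 3, and at 0.12 and 0.0667 FPKM in RSGL replicates 1 and 2, which are 2 fragments and 1 fragment. A count of 0 allows up to 3 fragments, or 0.179 to 0.2 FPKM for this gene, so no difference was detectable at this depth. That limit covers counting error only.

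In DMSO the 9 genes ranked by mean FPKM as PDK4, CPT1A, PPARG, ANGPTL4, PPARD, PPARGC1A, PPARA, CREB3L3 and FABP4. Of these neighbours only PPARA and CREB3L3 had overlapping libraries. Under BSGL only PPARG and ANGPTL4, which were at 12.4 to 13.3 and 11.1 to 14.3 FPKM, overlapped as neighbours. Under RSGL the order was ANGPTL4, PDK4, CPT1A, PPARG, PPARD, PPARA, PPARGC1A, CREB3L3 and FABP4, with no overlap between neighbours.

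The nearest relatives of these genes differed in level and direction. Of 12 genes of the ANGPTL family, lipoprotein lipase and its helpers, 0 passed the filter. LPL itself, the enzyme that ANGPTL4 inhibits, was at 0.068 FPKM in 1 DMSO library and at 0.014 or lower in the other 8. Of the CPT1 isoforms CPT1A made up 86.7% ± 2.39 (SD, n = 3) of the family FPKM in DMSO, 86.7% ± 0.951 under BSGL and 85.8% ± 2.79 under RSGL. CPT1C, the brain isoform, held 12.5% and CPT1B, the muscle isoform, 0.864% in DMSO. Of 10 genes of the carnitine shuttle and of malonyl-CoA, the inhibitor of CPT1, 9 passed, and under RSGL 2 were called higher and 2 lower, which is near the 27.2% and 27.6% of all tested genes. CPT2, which works after CPT1A on the inner mitochondrial membrane, fell from a mean of 8.42 to 6.25 FPKM (log2 -0.38, adjusted p = 0.000186), opposite to CPT1A. CRAT, the carnitine acetyltransferase, rose from 14.1 to 15.9 FPKM (adjusted p = 0.00633). The list's median was 0.04 under RSGL and 0.02 under BSGL, where limma called 0, 0 had an unadjusted p under 0.05 and limma-voom called 0.

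PDK4 made up 76.4% ± 1.27 of the FPKM of the 4 PDK kinases in DMSO, 79.2% ± 1.17 under BSGL and 81.2% ± 0.529 under RSGL. Under RSGL PDK4 itself was not called, while 2 of its relatives were lower. PDK2 fell from a mean of 6.10 to 4.04 FPKM (log2 -0.50, adjusted p = 0.000611) and PDK3 from 2.53 to 1.75 (adjusted p = 0.000581), while PDK1, the kinase known for its rise in low oxygen, averaged 1.32 in DMSO and 1.64 under RSGL. PDK1 lay at the threshold (adjusted p = 0.0482) and lost its call under 9 of the 15 other settings, 5 of them with a library left out (adjusted p = 0.0926 to 0.157, without DMSO replicate 1 or 3 or any 1 RSGL library). The phosphatases that undo the work of these kinases rose. PDP1 was at 6.43, 7.32 and 6.9 FPKM in DMSO and at 14, 13.7 and 13.4 under RSGL (log2 0.90, SE 0.0494, adjusted p = 2.81e-07), and PDP2 rose from a mean of 2.41 to 3.43 (adjusted p = 0.000189). Subunits of the complex fell, with the E1 subunit PDHB going from a mean of 45.4 to 34.3 FPKM (log2 -0.40) and the E3 subunit DLD from 47.3 to 37.3 (log2 -0.33). Of the 12 genes of this list, all tested and PDK4 not among them, 4 were called higher and 6 lower under RSGL, beside 27.2% and 27.6% of all tested genes, with a median of -0.12. Under BSGL limma called 0, 1 had an unadjusted p under 0.05 and limma-voom called 0, with a median of 0.01. Of all 12775 tested genes, 857 had an unadjusted limma p under 0.05 in that comparison.

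The listed relatives of CREB3L3 all passed the filter, whereas of those of FABP4 only FABP5 did. FABP5, the epidermal fatty acid carrier, averaged 83.9 FPKM in DMSO, 86.0 under BSGL and 77.6 under RSGL and was called in neither comparison with DMSO (adjusted p = 0.978 and 0.333), while the other 6 FABP genes of the list did not pass the filter. Of 6 genes of the CREB3 family and its proteases, all tested, 3 were called higher and 1 lower under RSGL, beside 27.2% and 27.6% of all tested genes, with a median of 0.07. Under BSGL limma called 0, 0 had an unadjusted p under 0.05 and limma-voom called 0, with a median of -0.01. CREB3L2, a factor of secretory cells, rose from 11.3 to 14.8 FPKM (log2 0.37, adjusted p = 1.81e-05), and CREB3 rose from 33.3 to 36.1 FPKM. The protease MBTPS1, which helps to release these factors from the membrane, fell from 19.8 to 17.7 FPKM (adjusted p = 0.00603). CREB3 lost its call without DMSO replicate 2 (adjusted p = 0.0607) and without RSGL replicate 3 (adjusted p = 0.0581).

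A wider list of 40 known PPAR target genes, most of them from liver, muscle or fat, gave 24 that passed the filter. Under RSGL 11 were called higher and 5 lower, beside 27.2% and 27.6% of all tested genes, with a median of 0.11 against -0.00 over all tested genes. PLIN2, which coats lipid droplets and was the gene of the list with the largest difference, stood at 15.8, 15 and 16.5 FPKM in DMSO, at 19.6, 18.8 and 18.0 under BSGL, and at 125, 116 and 125 under RSGL. G0S2, which holds back the triglyceride lipase, was at 6.69, 7.2 and 7.1, at 9.95, 9.15 and 8.81, and at 21.7, 21.7 and 21.3 FPKM. The groups did not overlap for either gene. Of all tested genes, 12.8% had no overlap between BSGL and DMSO, and 61.2% had none between RSGL and either other group. The RSGL differences from DMSO were 2.87 for PLIN2 (SE 0.0464, adjusted p = 1.74e-10) and 1.5 for G0S2 (SE 0.0474, adjusted p = 8.54e-09). The calls downward included CPT2 and UCP2, an inner mitochondrial membrane carrier, which fell from 28.2 to 21.7 FPKM (log2 -0.36, adjusted p = 0.000356).

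The other 9 calls upward under RSGL ran from 0.17 for ACSL1, an acyl-CoA synthetase, to 1.08 for PLIN4, another droplet coat protein, which reached a mean of 2.53 FPKM. PLIN4 passed the filter through the RSGL libraries, since only 1 of the other 6 reached 1 FPKM, so its entry among the 24 depended on its difference (adjusted p = 1.41e-05 with no filter). ACSL1 lost its call without DMSO replicate 3 (adjusted p = 0.055) and without RSGL replicate 1 (adjusted p = 0.0551). The trifunctional protein subunit HADHB, of mitochondrial fatty acid oxidation, rose by 0.18 (adjusted p = 0.005), and its partner HADHA differed by -0.03 (adjusted p = 0.559). CYP4A11, a classic PPARA target of liver, was listed at 0 in every library. Under BSGL 1 of the 24, G0S2, was called higher (log2 0.36, adjusted p = 0.0286), where 0.0470% of all tested genes were called higher. It lost this call under 11 of the 15 other settings tried, among them each library left out in turn, where the adjusted p was 0.0784 to 0.165. An unadjusted limma p under 0.05 was given to 4 of the 24 under BSGL, and to 857 of all 12775 tested genes. PLIN2 differed by 0.24 under BSGL (95% interval 0.13 to 0.34, adjusted p = 0.196). In the direct comparison 10 of the 24 were called higher and 7 lower under RSGL, beside 26.5% and 27.5% of all tested genes.

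**Figure D4:**
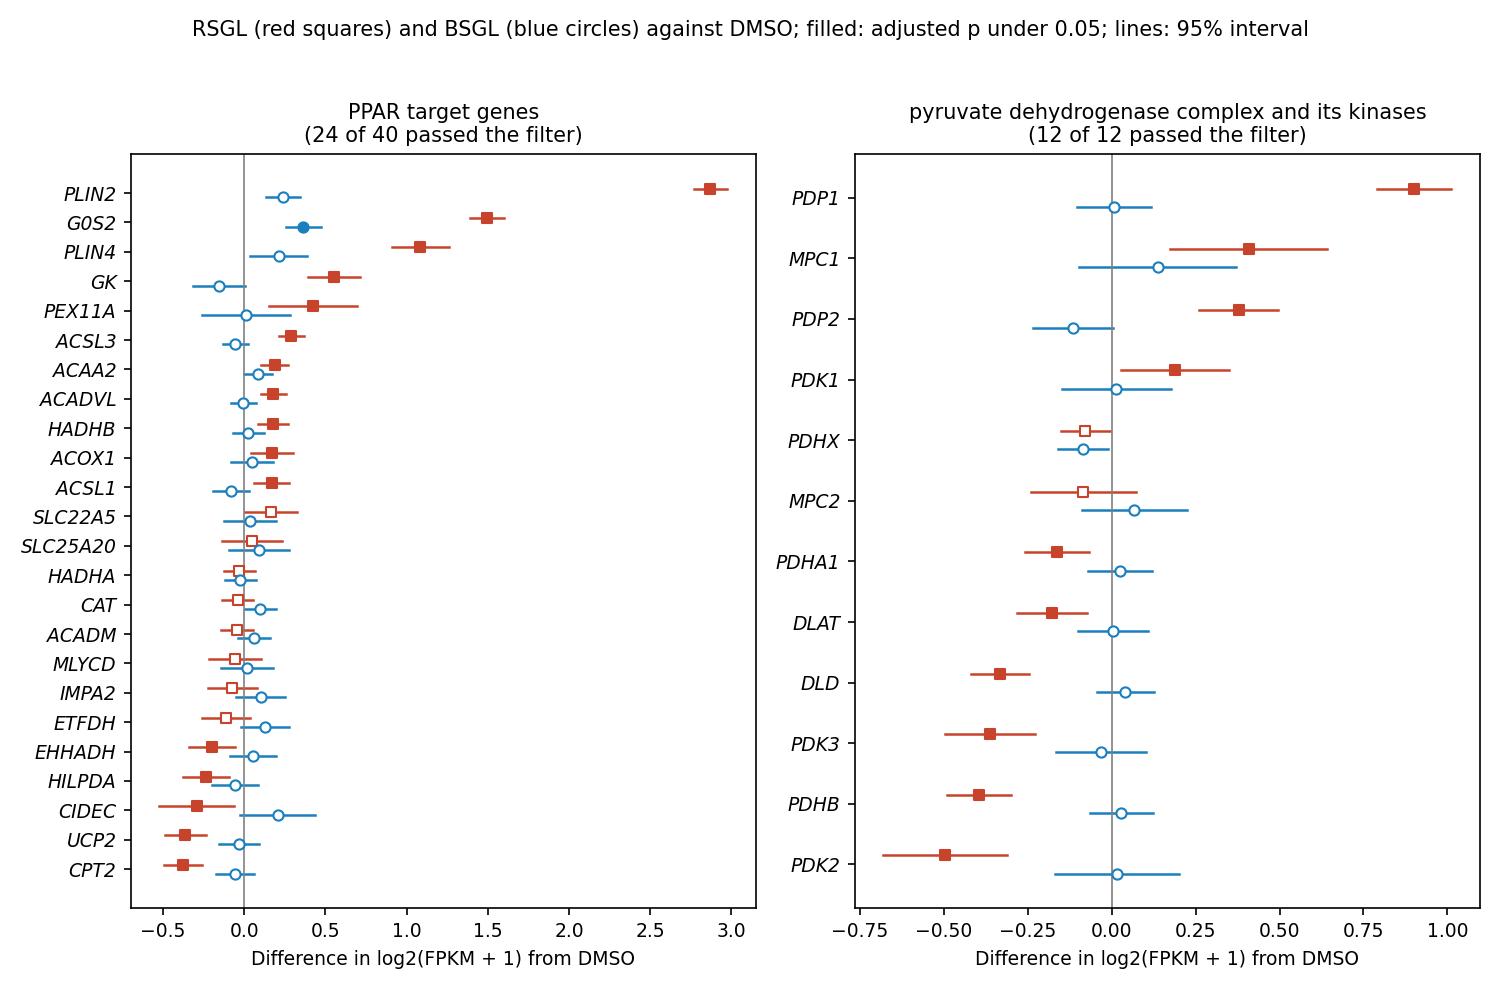
Differences from DMSO in log2(FPKM + 1) (horizontal axes, each with its own range) of the list genes that passed the filter, for RSGL (red squares) and BSGL (blue circles), with 95% intervals. Filled symbols passed at an adjusted p under 0.05, which holds for 16 of the 24 PPAR targets and 10 of the 12 pyruvate dehydrogenase genes under RSGL, and for G0S2 alone under BSGL.

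Profiles most like those of ANGPTL4, CPT1A and PDK4 were sought among 7143 protein-coding genes with a mean of at least 5 FPKM. Likeness was the root mean square distance over the 9 libraries on the log2(FPKM + 1) scale, after subtracting each gene's DMSO mean. It is a description of these libraries. For ANGPTL4 the nearest were GDF15, a stress hormone (distance 0.347), PLIN2 (0.357) and DUSP5, a phosphatase of ERK (0.429), whose RSGL differences were 3.01, 2.87 and 2.86 and whose BSGL differences were 0.12, 0.24 and 0.05. For CPT1A they were COTL1, an actin-binding protein (0.0468), CLDND1 (0.0686) and C17orf58 (0.072). For PDK4 they included IL7R, the interleukin-7 receptor (0.07), and AP1S3, a subunit of a clathrin adaptor (0.0709), with BSGL differences of 0.17 and 0.15 and RSGL differences of -0.00 and 0.07.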

How the data were processed

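RNA was sequenced in 9 libraries, 3 per group. The deposited table holds FPKM for 45754 genes, per the file headers, beside gene IDs, lengths and GRCh38 sequence accessions. Per the submitters' processing notes, DESeq2 1.16.1, featureCounts 1.5.0-p3 and HISAT2 2.0.5 were used, without a role given. The counting's strand setting was not given in the sources used here. FPKM times gene length came within 0.01 of whole multiples of 1 step for 100% of values under 300 fragments, which gave fragments per gene.

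The 12775 genes that reached 1 FPKM in 3 or more libraries were tested as log2(FPKM + 1), a scale that understates changes of low genes, with limma 3.58.1 (R 4.3.3, statmod 1.5.0). The model had 1 term per group, an intensity trend and robust empirical Bayes. Benjamini-Hochberg adjustment covered every tested gene, and an adjusted p under 0.05 was called. The procedure was tested on simulated data in which only genes with more fragments than PPARA has in DMSO were changed. That test does not cover genes as low as PPARA. List genes were named if called, with 5 FPKM or more on average in the higher group and no overlap between groups, at most 4 per list, and others as close relatives or, such as PLIN4, ACSL1, HADHA, HADHB, CYP4A11 and RXRA, after their values were seen. Some genes that the rules select are not reported here. The members and lists were chosen with earlier results of these data known. Other settings changed pseudocount, filter, scaling, model options, block, count model and libraries.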

Additional observations from a re-analysis of the deposited data

How the results depend on the processing

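In the comparison of BSGL with DMSO, 11 genes were called, and this count moved with the processing. It was 0 with no filter, 0 with no trend and no robust option, 0 with the replicate block, 2 with only the compared groups (1 shared with the 11) and 31 with limma-voom on recovered fragments (10 shared). Leaving out 1 library gave 0 to 2 calls. In the first 3 of these settings limma gave an unadjusted p under 0.05 to 1601 of 30093, 877 of 12775 and 813 of 12775 tested genes. Genes with no difference are among such counts, and their share was not estimated. The replicate numbers are not stated to mark a shared culture or day, and same-numbered libraries correlated at -0.106 to 0.148 in their deviations, so the block was not used. It left 6792 calls for RSGL against DMSO and 6696 for RSGL against BSGL. Those comparisons had 7005 and 6904 calls, and the other settings stayed within 1.5 times. The median difference of all genes stayed within 0.01 under both other scalings.

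Of the 9 genes, PPARD against DMSO under BSGL turned from -0.03 to 0.039 without DMSO replicate 1 and ran from -0.112 to 0.039 over the libraries left out. PDK4 under RSGL turned from -0.01 to 0.0173 without DMSO replicate 2 and to 0.0066 without RSGL replicate 3, over a range of -0.0463 to 0.0173. Neither passed in any setting. The other differences of the 7 genes that passed the filter kept their sign where they could be fitted. Those that were tested also kept their side of the threshold, except PDK4 under BSGL with limma-voom. For PPARA and PPARGC1A this was partly fixed in advance, since every filtered fit held them only through libraries in which they were high. ANGPTL4 and CPT1A against DMSO were not tested and so had no threshold. The ANGPTL4 difference under RSGL ran from 3.28 to 3.48 over the settings. PPARA could not be fitted without 1 RSGL library, nor PPARGC1A without certain DMSO or BSGL libraries, since too few libraries reached 1 FPKM. Calls among the carnitine genes under RSGL ran from 2 to 5 and those of the CREB3 family from 2 to 4. The cause was not tested.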
